A study of Mus musculus with 10 samples.

Results

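Genes of glucose uptake and breakdown were examined across 5 cell populations of the mouse hair follicle and its dermis, together with Fbp1, which encodes fructose bisphosphatase, an enzyme of glucose synthesis. The genes were listed by name, as Fbp1, Slc2a1, Hk1, Hk2, Pfkp, Aldoa, Pgk1, Eno1, Pkm and Ldha, and every probe-set annotated to 1 of them alone was taken. Of the 10 listed genes 9 were analysed, among 12393 genes named by the array annotation, and Eno1 was not analysed here. They were covered by 18 probe-sets, of which 14 passed the filter described next.

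The signals came from 10 Affymetrix MOE430A arrays, 2 for each population sorted from back skin at postnatal day 4 (P4). All of the animals carried both K14-H2BGFP, which marks epithelial nuclei green, and Lef1-RFP, in which a fragment of the human Lef1 promoter drives a red fluorescent protein in dermal papilla cells and melanocytes rather than everywhere the mouse Lef1 gene is active. Matrix cells (Mx), the proliferating epithelium of the hair bulb, were GFP-low and RFP-negative, whereas outer root sheath cells (ORS), the outer epithelial layer, were GFP-high and RFP-negative. Dermal papilla cells (DP), the mesenchyme enclosed by the bulb, were RFP-high and GFP-negative, and the dermal fraction (DF), enriched in fibroblasts, lacked both colours, each after removal of cells carrying CD34, CD45 or CD117. Melanocytes (Mc) were RFP-high, GFP-negative and CD117-positive. Several back skins were pooled for each sort, so that an array stands for a pool of animals and not for 1 mouse.

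Of the marker lists of these populations, 6 of 8 Mx genes, 7 of 7 ORS genes, 6 of 7 DF genes, 6 of 8 DP genes and 8 of 8 Mc genes reached a signal of 200 on both arrays of their own population, and none of the markers was listed at 0. These counts do not measure purity. The same level was reached by 6 of 7 DF markers in DP, 5 of 8 Mx markers in ORS and 4 of 7 ORS markers in DF. A probe-set was tested where its signal was at least 200 on both arrays of at least 1 population, which held for 8054 of 22626 probe-sets. The test was limma on log2(signal + 50), with p-values adjusted over those 8054, and all differences below are on that log2 scale, which understates the change of dim genes. A gene is represented by its brightest tested probe-set, and a gene's level was never set against that of another gene. In sorted bulk samples, fewer cells of a type and less RNA per cell cannot be told apart.

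Glycolysis starts when glucose enters through a carrier such as the product of Slc2a1 and is trapped by a hexokinase. Phosphofructokinase then commits the sugar to breakdown, aldolase splits it, and phosphoglycerate kinase and pyruvate kinase make ATP before lactate dehydrogenase turns pyruvate into lactate. Fructose bisphosphatase runs the phosphofructokinase step backwards, as in liver and kidney, where glucose is made. Several genes of the pathway are known targets of the hypoxia-inducible factors, which bind DNA at the short cores ACGTG and GCGTG.

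Promoter windows from RefSeq (GRCm38.p6), running from 250 bases before to 50 bases after a gene's start, are shown for Fbp1, whose signal was highest in Mx, and for 4 genes whose signal was highest in Mc. Capitals mark the cores ACGTG and GCGTG, read on both strands, and a CACGTG holds ACGTG on either strand, so that its 6 letters count as 2 overlapping matches.
Fbp1 (chr13:62888233-62888532, minus strand): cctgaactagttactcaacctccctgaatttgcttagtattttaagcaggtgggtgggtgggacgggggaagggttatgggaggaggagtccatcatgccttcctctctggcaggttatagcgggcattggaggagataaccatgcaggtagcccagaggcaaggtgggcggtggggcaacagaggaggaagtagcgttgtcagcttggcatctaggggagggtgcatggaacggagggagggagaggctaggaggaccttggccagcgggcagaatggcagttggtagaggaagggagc
Hk2 (chr6:82774405-82774704, minus strand): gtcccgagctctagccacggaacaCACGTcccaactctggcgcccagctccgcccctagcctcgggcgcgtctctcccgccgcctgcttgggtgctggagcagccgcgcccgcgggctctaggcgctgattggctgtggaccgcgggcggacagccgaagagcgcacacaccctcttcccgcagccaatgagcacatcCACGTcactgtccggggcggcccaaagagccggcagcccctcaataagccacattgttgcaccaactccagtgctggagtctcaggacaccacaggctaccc
Aldoa (chr7:126799205-126799504, minus strand): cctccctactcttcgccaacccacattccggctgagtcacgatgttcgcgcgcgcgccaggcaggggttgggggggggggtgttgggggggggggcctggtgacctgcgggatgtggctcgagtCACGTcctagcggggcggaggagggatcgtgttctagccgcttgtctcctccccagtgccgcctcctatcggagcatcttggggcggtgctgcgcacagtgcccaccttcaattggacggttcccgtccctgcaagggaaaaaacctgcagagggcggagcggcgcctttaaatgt
Pgk1 (chrX:106186850-106187149, plus strand): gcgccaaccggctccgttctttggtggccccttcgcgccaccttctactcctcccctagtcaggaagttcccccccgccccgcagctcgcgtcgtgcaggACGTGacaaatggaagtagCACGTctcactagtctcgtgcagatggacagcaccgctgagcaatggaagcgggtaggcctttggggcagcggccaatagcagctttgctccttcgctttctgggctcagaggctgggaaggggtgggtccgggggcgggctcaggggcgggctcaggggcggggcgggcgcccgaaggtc
Ldha (chr7:46845554-46845853, plus strand): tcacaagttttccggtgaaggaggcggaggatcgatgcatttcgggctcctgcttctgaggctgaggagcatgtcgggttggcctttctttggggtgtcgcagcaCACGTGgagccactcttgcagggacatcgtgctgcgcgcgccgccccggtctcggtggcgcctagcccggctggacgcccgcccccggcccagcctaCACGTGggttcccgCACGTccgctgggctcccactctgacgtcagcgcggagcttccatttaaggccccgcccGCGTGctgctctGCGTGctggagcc
The window of Fbp1 held neither core. Those of Hk2 and Pgk1 each held ACGTG 2 times, that of Aldoa held it 1 time in the start shown (window 2 of 3), and the Ldha window shown (1 of 2) held ACGTG 5 times and GCGTG 2 times, with 2 copies of CACGTG. Each of the 8 analysed genes other than Fbp1 had at least 1 core in some window, and 10 of their 13 windows had one, or 76.9%, against 43.8% of all 32817 windows. ACGTG alone occurred in 19.6% of all windows, GCGTG in 32.4% and CACGTG in 7.15%. Windows 2 and 3 of Aldoa overlap and share the same match, so it is counted in both, and its window 1 held neither core. The background is per window, and a gene with several windows had more chances of a match. The matches describe the letters only.

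Fbp1 was high in Mx and low in the other 4 populations. Its signal (probe-set 1448470_at) was 1687 and 1181.5 in Mx, against 59.3 and 124 in ORS, 84.5 and 257 in DF, 159 and 194 in DP, and 57.5 and 50.1 in Mc. The Mx arrays thus lay apart from the other 8 arrays, of which DF replicate 2 was the highest. Because the gene was listed for its level in Mx, the differences of Mx over DP (2.70), DF (2.85), ORS (3.41) and Mc (3.82) are given as a description with no test. The probe-set passed the filter through Mx alone. Outside Mx only DF replicate 2 was above 200, so the order of the other 4 populations, in which both Mc arrays were lowest, is not tested either.

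Within ORS, DF and DP the Fbp1 signal moved with the Mx marker list. The summed signal of the 8 Mx markers was 16708 and 15119 in Mx, 2808 and 3945 in ORS, 1258.5 and 4756 in DF, 1804 and 2236 in DP, and 753 and 757 in Mc. In each of these 3 populations the array with the higher sum was also the array with the higher Fbp1 signal. In Mc, where the 2 sums were nearly equal, the order was reversed, with Fbp1 at 57.5 and 50.1. The part of Mx cells or RNA in these signals was not tested.

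Slc2a1, the gene of the widespread glucose carrier Glut1, was lowest in Mx and highest in ORS and Mc. Its brightest probe-set (1434773_a_at), which passed the filter through Mc alone, gave 73.9 and 47.9 in Mx, 254 and 193 in ORS, 134.5 and 97.1 in DF, 143 and 133 in DP, and 232.5 and 214 in Mc. Both Mx arrays lay below the other 8. In the order of levels, Mc, ORS, DP and DF followed each other with no neighbouring difference past the threshold, and Mx was lower than DF (-0.58, SE 0.20, adjusted p = 0.0287). That call was lost with quantile normalization (-0.22, adjusted p = 0.415), after rescaling each array over all probe-sets (-0.45, adjusted p = 0.0832) and without Mx replicate 2 (-0.41, adjusted p = 0.125) or DF replicate 1 (-0.42, adjusted p = 0.199). The other probe-sets of Slc2a1 stayed under the filter but had the same lowest population, with 28.6 and 23.9 (1426599_a_at) and 53.4 and 71.9 (1426600_at) in Mx, against 156 and 128, and 195 and 198, in ORS.

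The 2 hexokinase genes were distributed differently. Hk1, the form found in most tissues, was highest in DF and lowest in Mx (1437974_a_at), with 588 and 386 in DF, 248 and 305.5 in DP, 195.5 and 212 in Mc, 106 and 159.7 in ORS, and only 22.6 and 33.9 in Mx. Both DF arrays lay above, and both Mx arrays below, the other 8. Mx was lower than its neighbour in the order, ORS (-1.21, SE 0.23, adjusted p = 0.00195), and lower than DF by the widest margin (-2.76, SE 0.23, adjusted p = 5.93e-07). The other Hk1 probe-set (1420901_a_at), too dim to test, had 1.5 and 1.1 in Mx and between 7.7 and 67.4 on the other 8 arrays.

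Hk2, the hexokinase of insulin-sensitive and proliferating tissues, was highest in Mc. Its signal (1422612_at) was 574 and 809 in Mc, 256 and 250.2 in DP, 189 and 268 in Mx, 209 and 154 in ORS, and 145.5 and 106 in DF. Both Mc arrays lay above the other 8, and in the order below Mc (DP, Mx, ORS, DF) no neighbours differed past the threshold. Mx, which had the lowest Hk1, was therefore not lowest for Hk2: against DF it was higher, by 0.66 (SE 0.23, adjusted p = 0.0275). That call ended on leaving out replicate 2 of Mx (0.45, adjusted p = 0.147) or of DF (0.49, adjusted p = 0.171), when the chip lot was blocked (0.63, adjusted p = 0.0554) and when the signal filter was dropped (adjusted p = 0.0527).

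Pfkp, the platelet form of phosphofructokinase, was high in ORS and DF and low in DP and Mx. Its signal (1416069_at) was 303 and 284 in ORS, 289 and 247 in DF, 215 and 185 in Mc, 88.5 and 91.6 in DP, and 62.7 and 63.4 in Mx. The populations fell into a higher set (ORS, DF and Mc) and a lower set (DP and Mx), with the step between Mc and DP past the threshold (0.83, SE 0.17, adjusted p = 0.00255) but no step between neighbours within either set. A dim probe-set of Pfkp (1430634_a_at) was not tested and ran from 13.0 and 16.6 in Mx to 58.7 and 92.3 in DF.

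Aldoa, the aldolase of muscle and most other tissues, was highest in Mc and lowest in Mx. Its brightest probe-set (1416921_x_at) gave 2942 and 3876 in Mc, 2196 and 2315 in DF, 1597 and 2119 in ORS, 1865 and 1436 in DP, and 1164.5 and 1299.8 in Mx. Both Mc arrays lay above and both Mx arrays below all others, although no neighbours in the order Mc, DF, ORS, DP, Mx differed past the threshold. Of its 4 tested probe-sets, 3 had both Mc arrays on top. The remaining one (1439375_x_at) had nearly equal means in Mc (958 ± 99.8, SD, n = 2) and DF (920.4 ± 79.8), a difference of 0.05 (SE 0.21, adjusted p = 0.871). All 4 carry the suffix _x_at, which Affymetrix gives to sets with probes that can match further transcripts.

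Pgk1, the gene of phosphoglycerate kinase, was highest in Mc, but by how much depended on the probe-set. The brightest (1438640_x_at) gave 4954 and 4858 in Mc, against 4389 and 3155 in Mx, 4021 and 3427 in ORS, 3741 and 3249.5 in DF, and 4051 and 3147 in DP. Although both Mc arrays were above the other 8, its differences of Mc over the other populations were between 0.39 and 0.49 and none passed the threshold (adjusted p = 0.0930 to 0.153). On 1417864_at the signal was 3103 and 3063 in Mc and between 1218 and 1907 elsewhere, and on 1439435_x_at it was 435 and 470.3 in Mc and between 149.7 and 243 elsewhere. On these probe-sets Mc was higher than each of the other 4 populations, by 0.83 to 1.14 on 1417864_at and by 0.89 to 1.18 on 1439435_x_at (adjusted p from 0.000201 to 0.00683).

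Pkm, the gene of the pyruvate kinase of muscle and of most dividing cells, was high in Mc and ORS. Its signal (1417308_at) was 1190.2 and 1035 in Mc, 1091.5 and 980.3 in ORS, 849.7 and 582 in DP, 574 and 594 in DF, and 459 and 623 in Mx. No neighbours in this order differed past the threshold, while ORS was higher than DF by 0.78 (SE 0.22, adjusted p = 0.0137) and Mc higher than DF by 0.87 (SE 0.22, adjusted p = 0.00620). Leaving out ORS replicate 1, DF replicate 1 or DF replicate 2 took the former to adjusted p = 0.0917, 0.0699 and 0.0515, and leaving out Mc replicate 1 took the latter to 0.0565. Ldha, the gene of the lactate dehydrogenase subunit of muscle, was highest in Mc (1419737_a_at), at 3703 and 2972, against 2252 and 1907 in DP, 1996 and 1366 in DF, 1797 and 1166 in Mx, and 1689.9 and 1233 in ORS. Both Mc arrays lay above the others, and below Mc no neighbours in the order differed past the threshold.

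**Figure D1:**
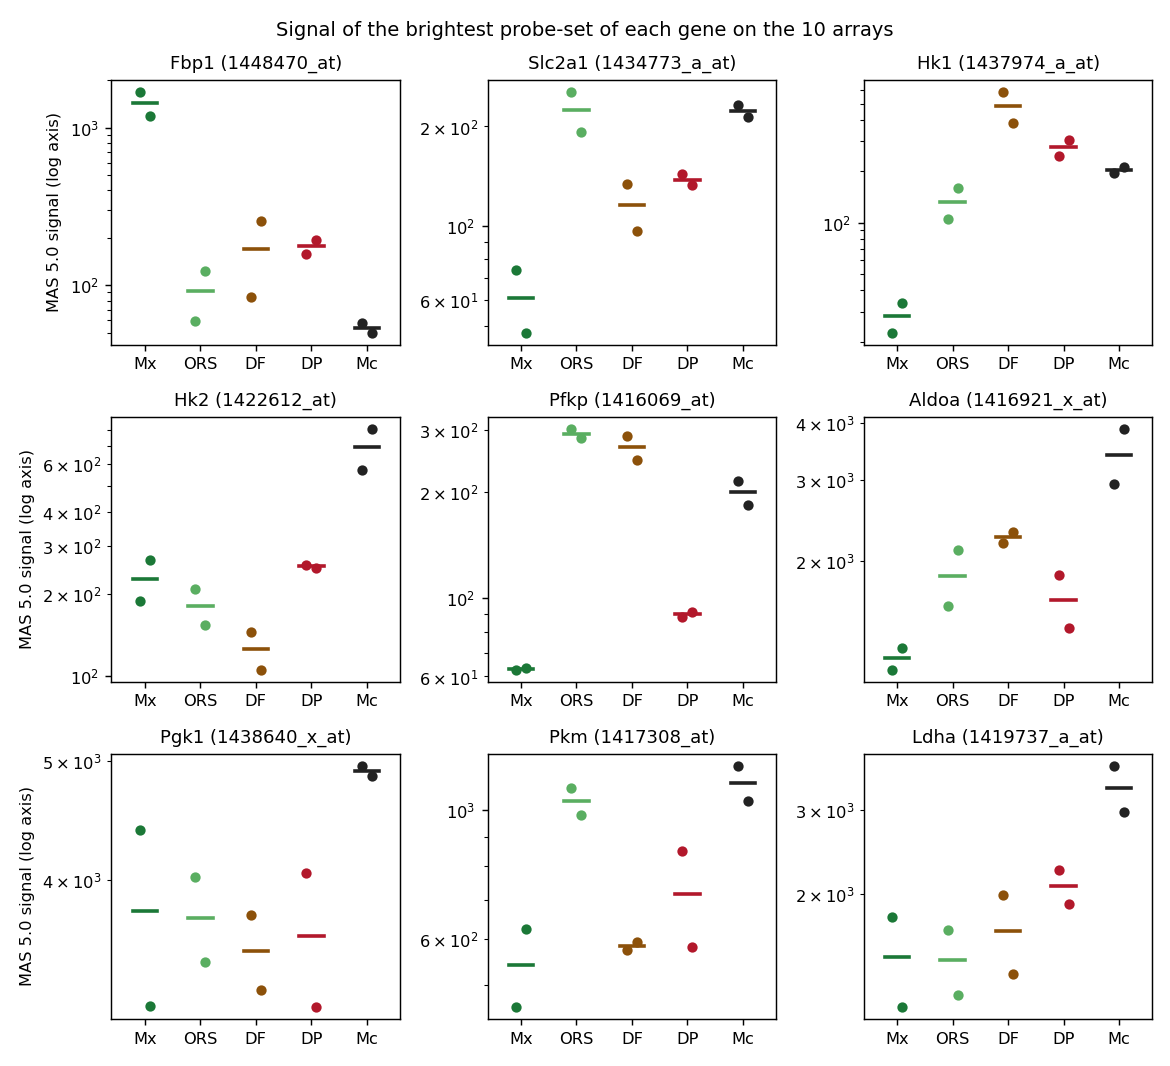
MAS 5.0 signal (vertical log axis, a separate range in each panel) of the brightest probe-set of 9 genes in the 5 populations, where points are single arrays (2 a population) and bars their means. Fbp1 is high in Mx alone (1687 and 1181.5), whereas Slc2a1, Hk1, Pfkp and Aldoa have their lowest points there, and Hk2, Aldoa, Pgk1 and Ldha have both of their highest points in Mc.

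Over the 8 genes of uptake and breakdown, Mc had the highest mean in 5 and Mx the lowest in 5. Both Mc arrays lay above the other 8 arrays for 4 of the 8 genes, against 11.8% of all tested probe-sets, and both Mx arrays lay below the other 8 for 4 of the 8, against 16.9%. DF had 1 gene above and 1 below, against 12.2% and 3.50%. No gene had both ORS or both DP arrays at either end. The shares of all tested probe-sets above and below were 8.22% and 2.26% for ORS and 10.3% and 7.83% for DP. In limma's F-test over the 5 populations 7 of the 8 genes were called, all but Pgk1 on its brightest probe-set, and 12 of 13 probe-sets, against 70.4% of all tested probe-sets.

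**Figure D2:**
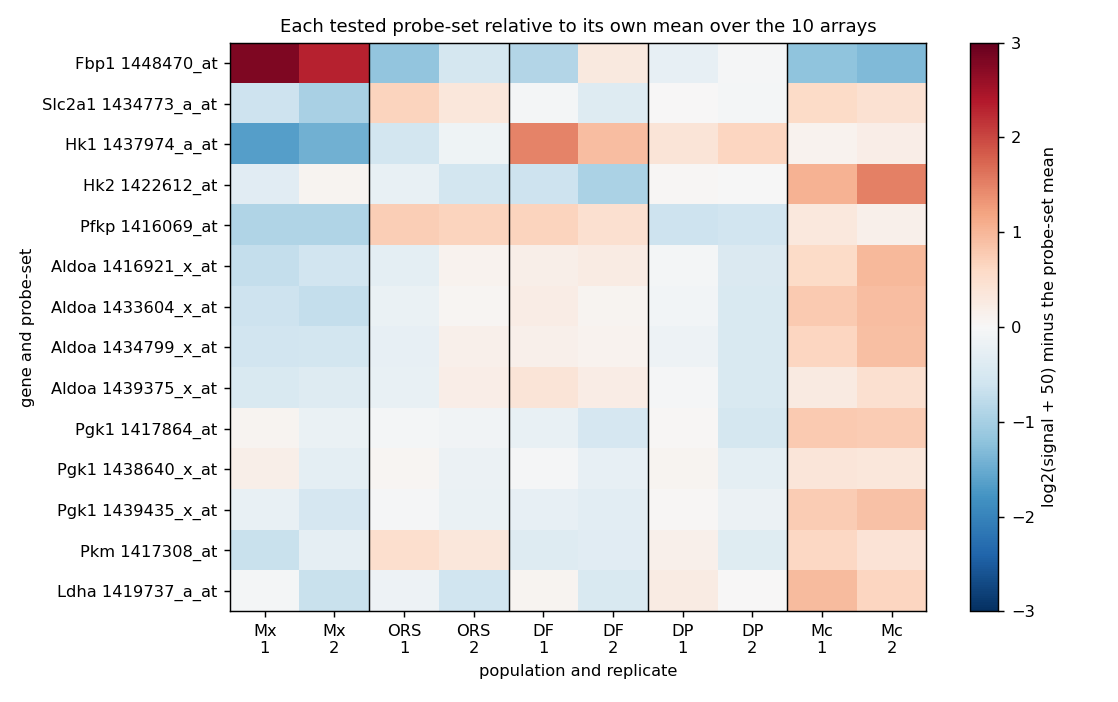
Colour map of log2(signal + 50) on each array minus the probe-set's own mean over the 10 arrays, for the 14 tested probe-sets (rows) and the 10 arrays (columns, by population and replicate). The Fbp1 row reaches 2.80 and 2.31 in Mx, the Hk1 row falls to -1.65 and -1.44 there, and every row but that of Fbp1 is above 0 on both Mc arrays.

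Mc was compared with Mx, the epithelial cells into which melanocytes of the bulb deliver pigment. Signals were higher in Mc for most of the listed genes of uptake and breakdown. These were the carrier Slc2a1 (1.31, SE 0.20, adjusted p = 0.000183), the hexokinases Hk1 (1.70, SE 0.23, adjusted p = 5.61e-05) and Hk2 (1.41, SE 0.23, adjusted p = 0.000254), Pkm (0.99, SE 0.22, adjusted p = 0.00222) and Ldha (1.17, SE 0.26, adjusted p = 0.00243). Pfkp was higher by 1.14 and Aldoa by 1.42, and Pgk1 had 0.39 (adjusted p = 0.141), or 0.63 without Mx replicate 1 (adjusted p = 0.0378), 0.97 with quantile normalization (adjusted p = 0.000892) and 0.80 as the mean of its tested probe-sets (adjusted p = 0.00418). In all, 7 of the 8 genes were higher and 0 lower by limma (0 lower also at an unadjusted p under 0.05), where 24.1% of all tested probe-sets were higher in Mc and 25.8% lower, and the median difference of the 8 was 1.24 against -0.01 over all tested probe-sets. The 7 include Slc2a1, whose probe-set passed the filter through Mc alone. Its calls of Mc over other populations are therefore not independent of the filter. Its call over Mx was kept under all 22 settings, the fit with no filter among them. The 7 were called too when the chip lot was blocked, and the within-lot differences ran from 1.08 (Pkm) to 1.65 (Hk1). Fbp1 had the opposite order. The control probe-sets of Gapdh, another glycolytic gene that was not listed, were not tested. The 3_at set gave 4275 and 3118 in Mx against 4021 and 3871 in Mc, and the 5_at set 4210 and 2679 against 4190 and 3954. On both of these the arrays of Mx and Mc overlapped. The M_at set gave 3672 and 2520 in Mx against 3884.5 and 3734.5 in Mc.

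Mc and DP, the populations that share the RFP-high gate, differed in the same direction for fewer genes. Hk2 (1.27, SE 0.23, adjusted p = 0.000862), Aldoa (1.02, SE 0.21, adjusted p = 0.00271), Pfkp (0.83, SE 0.17, adjusted p = 0.00255) and Pkm (0.62, SE 0.22, adjusted p = 0.0446) were higher in Mc, and 0 genes were lower by limma, at an unadjusted p under 0.05 also 0. That is 4 of 8 genes, and 9 of 13 probe-sets, against 11.1% of all tested probe-sets higher in Mc and 19.4% lower, with a median of 0.64 against -0.09. Ldha had 0.67 (adjusted p = 0.0704), Slc2a1 0.54 (adjusted p = 0.0623) and Hk1 -0.36 (adjusted p = 0.262), and Ldha and Slc2a1 passed when either Mx array was left out (adjusted p = 0.0383 to 0.0468). With quantile normalization 7 genes were higher, and the share of all calls that were higher in Mc went from 36.5% to 49.9%. Within the 2 chip lots the difference was 1.03 and 1.52 for Hk2, 0.64 and 1.40 for Aldoa, 0.94 and 0.73 for Pfkp, and 0.46 and 0.78 for Pkm. With the lot as a block 5 genes were called, Ldha being the added one. Pkm was no longer called when DP replicate 2 was left out (0.37, adjusted p = 0.372), nor without either Mc array (0.52 without replicate 1 and 0.72 without replicate 2, adjusted p = 0.224 and 0.0912), nor without either ORS or DF array (adjusted p = 0.0588 to 0.0603).

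Pigment cell markers were also present in DP, although its sort removed CD117-positive cells. The summed signal of the 8 Mc markers, all 8 of which reached 200 on both Mc arrays and 6 on both DP arrays, was 25058 and 15305 in DP against 32244 and 34497 in Mc, 13019 and 3970.5 in DF, and at most 953 in Mx and ORS. DP replicate 1, with the higher sum, was also the higher of the DP arrays for each of the 8 genes except Hk1 and Pfkp. For Slc2a1, Pgk1 and Ldha, on their brightest probe-sets, replicate 1 was the higher array in every population, Mx and ORS among them. For Hk2, Aldoa and Pkm the order of the replicates differed between populations. The order in DP was not set against that of all tested probe-sets. The part of the Mc markers in the difference between Mc and DP was not tested.

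Against ORS, Mc was higher for Hk2 (1.67, SE 0.23, adjusted p = 6.11e-05), Ldha (1.17, SE 0.26, adjusted p = 0.00272) and Aldoa (0.86, SE 0.21, adjusted p = 0.00617), and lower for Pfkp (-0.46, SE 0.17, adjusted p = 0.0485), 3 and 1 of 8 genes against 15.8% and 25.2% of all tested probe-sets. Slc2a1 and Pkm, the genes with high signals in both, had differences of 0.01 (SE 0.20) and 0.10 (SE 0.22). The Pfkp call was lost with the chip lot as a block (adjusted p = 0.0558), with quantile normalization (-0.33, adjusted p = 0.130), and without any single array of ORS, DF, DP or Mc (adjusted p = 0.0579 to 0.254), and Aldoa (0.66 in both cases) was lost on leaving out ORS replicate 1 (adjusted p = 0.0743) and on leaving out Mc replicate 2 (adjusted p = 0.0805). With quantile normalization the share of calls that were higher in Mc went from 38.6% to 49.7% over all tested probe-sets, and the members were 5 higher and 0 lower.

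Against DF, Mc was higher for Hk2 (2.07, SE 0.23, adjusted p = 9.47e-06), Ldha (0.98, SE 0.26, adjusted p = 0.00902), Pkm and Slc2a1 (0.73, SE 0.20, adjusted p = 0.0122), and lower for Hk1 (-1.06, SE 0.23, adjusted p = 0.00238). These 4 of 8 higher and 1 of 8 lower stand beside 12.0% and 24.3% of all tested probe-sets. The 4 include Slc2a1, which passed the filter through Mc alone, so that call is not independent of the filter. Aldoa (0.57, adjusted p = 0.0535) and Pgk1 (0.49, adjusted p = 0.0930) passed when either Mx array was left out (adjusted p = 0.0480 to 0.04999). Without DF replicate 2 neither Ldha (0.72, adjusted p = 0.104) nor Slc2a1 (0.57, adjusted p = 0.113) was called, and the same held without Mc replicate 1 (0.83 and 0.68, adjusted p = 0.0805 and 0.0777). The share of calls that were higher went from 33.0% to 48.1% with quantile normalization, with 6 genes higher and 1 lower.

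Mx was compared with ORS, the epithelium that borders it. Mx had lower signals of the carrier and of 3 enzymes: Pfkp (-1.60, SE 0.17, adjusted p = 2.75e-05), Slc2a1 (-1.30, SE 0.20, adjusted p = 0.000465), Hk1 (-1.21, SE 0.23) and Pkm (-0.89, SE 0.22, adjusted p = 0.0108). Pgk1 and Ldha, by contrast, had differences of 0.00 (SE 0.21 and 0.26), Hk2 0.26 (SE 0.23) and Aldoa -0.56 (adjusted p = 0.0884). By limma 0 of the 8 genes were higher and 4 were lower (0 and 5 at an unadjusted p under 0.05), against 4.04% and 15.4% of all tested probe-sets, with a median of -0.73 against -0.11. In the 1 lot shared by Mx and ORS the differences were -1.64 (Pfkp), -1.47 (Slc2a1), -0.995 (Hk1) and -0.96 (Pkm), and the same 4 genes were called with the lot as a block. Leaving out replicate 1 of Mx (-0.69, adjusted p = 0.0901) or of ORS (-0.82, adjusted p = 0.0727) ended the Pkm call, and the share of calls higher in Mx over all tested probe-sets was 20.8%, or 36.9% with quantile normalization.

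Against DP, which Mx encloses in the bulb, Mx was lower for Hk1 (-2.06, SE 0.23, adjusted p = 8.57e-06) and Slc2a1 (-0.77, SE 0.20, adjusted p = 0.00576). Pfkp, low in both, had -0.31 (SE 0.17, adjusted p = 0.142). By limma these were 2 of 8 genes lower and 0 higher (also 2 and 0 at an unadjusted p under 0.05), against 33.1% and 25.0% of all tested probe-sets, with a median of -0.38 against -0.14, so the share of genes called was below the background. Slc2a1 was lost with quantile normalization (-0.43, adjusted p = 0.107), while Ldha (-0.50, adjusted p = 0.113) was called with the lot as a block (-0.69, adjusted p = 0.0249) and without Mx replicate 1 (-0.80, adjusted p = 0.0383). In the 1 lot shared by Mx and DP, Hk1 had -1.93 and Slc2a1 -0.81.

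Against DF, Mx was lower for Hk1, Pfkp (-1.49, SE 0.17, adjusted p = 1.38e-05), Aldoa (-0.85, SE 0.21, adjusted p = 0.00544) and Slc2a1 and higher for Hk2, 4 and 1 of 8 genes against 31.2% and 21.1% of all tested probe-sets. The share of all calls that were higher in Mx was 40.4%, or 53.2% after rescaling each array over all probe-sets, where the genes were 3 lower and 1 higher.

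**Figure D3:**
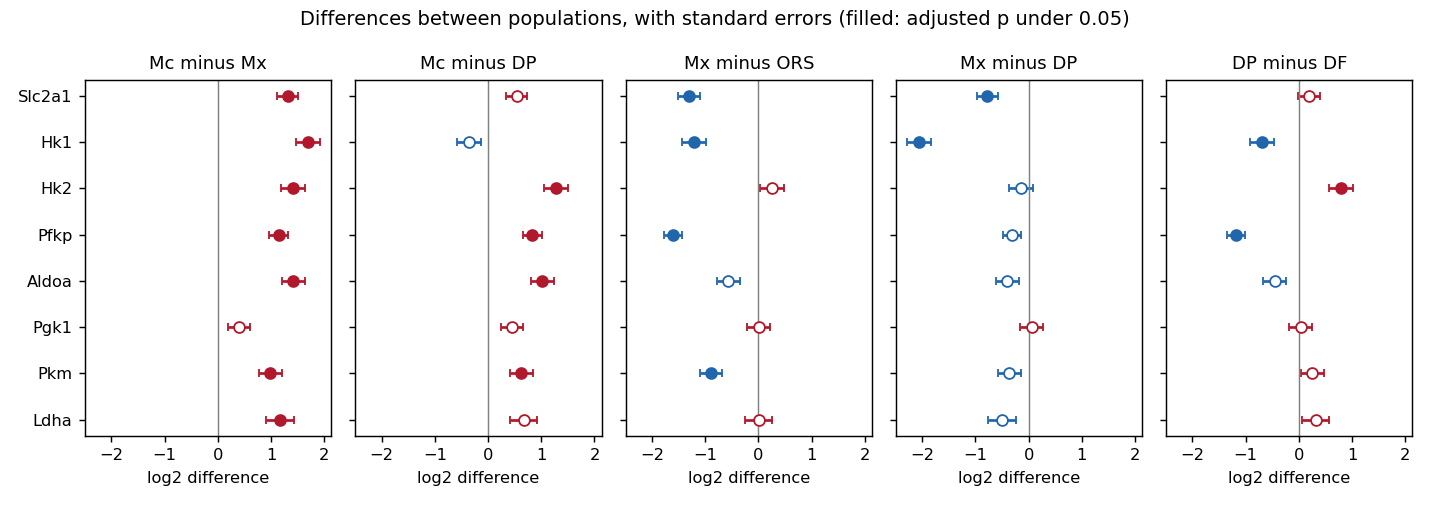
Log2 differences (horizontal axis, with standard errors from limma, 2 arrays a population) of 8 genes in 5 comparisons, red above 0 and blue below, filled where the adjusted p was under 0.05. The first panel, Mc minus Mx, holds 7 filled red points from 0.99 (Pkm) to 1.70 (Hk1), and the panel of Mx minus ORS holds 4 filled blue points.

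DP and DF, the mesenchymal populations, differed for Hk2, Pfkp and Hk1. Hk2 was higher in DP (0.80, SE 0.23, adjusted p = 0.0257), whereas Pfkp (-1.18, SE 0.17, adjusted p = 0.000320) and Hk1 (-0.70, SE 0.23, adjusted p = 0.0487) were lower, and the remaining 5 genes were not called. This was 1 gene higher and 2 lower of 8, against 7.49% and 11.5% of all tested probe-sets. Within the 2 chip lots Pfkp had -1.29 and -1.07, Hk2 0.65 and 0.95, and Hk1 -1.10 and -0.29. Hk2 was lost without DF replicate 2 (0.63, adjusted p = 0.176), DP replicate 1 (adjusted p = 0.123) or DP replicate 2 (adjusted p = 0.104), and Hk1 was lost with the lot as a block (adjusted p = 0.0592) and without DF replicate 1 (-0.42, adjusted p = 0.369), either DP array (adjusted p = 0.268 and 0.0888) or either Mc array (adjusted p = 0.0688 and 0.0686). DF, although sorted after removal of CD34-positive cells, also carried markers of blood vessels, with 4 of 8 endothelial genes at 200 or more on both arrays and a summed signal of 4920 and 3674 against at most 306 elsewhere, and of red blood cells, with Alas2 alone at that level and a sum of 3708 and 4572 against at most 127. Adipocyte markers summed to 1293 and 1928 in DF, against at most 439 elsewhere. Of the 3 adipocyte genes on the array, 1 was at that level in DF and 1 in Mx. Schwann cell markers summed to 2425 and 1815 in DF, 955 and 1237 in DP, and 1888 and 1951 in Mc. Of the 3 Schwann cell genes on the array, 2 were at that level in DF, 2 in DP and 1 in Mc. Pigment cell markers were present in DF too, as given above. The part of all these markers in the Hk1 and Pfkp signals of DF was not tested.

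ORS differed from DF or DP for 4 of the genes. It was higher than DF for Pkm and Slc2a1 (0.72, SE 0.20, adjusted p = 0.0141) and lower for Hk1 (-1.54, SE 0.23, adjusted p = 0.000157), 2 and 1 of 8 genes against 15.4% and 19.5% of all tested probe-sets. Slc2a1 was lost there without ORS replicate 1 (0.56, adjusted p = 0.134) or DF replicate 2 (0.56, adjusted p = 0.114). It was higher than DP for Pfkp (1.29, SE 0.17, adjusted p = 6.11e-05) and lower for Hk1 (-0.85, SE 0.23, adjusted p = 0.00951), 1 and 1 of 8 genes against 20.3% and 19.8%. Hk1 was lost there without ORS replicate 1 (-0.63, adjusted p = 0.107) or DP replicate 2 (-0.72, adjusted p = 0.0832), and Slc2a1 (0.53, adjusted p = 0.0528) and Pkm (0.52, adjusted p = 0.0706) passed without either Mx array (adjusted p = 0.0320 to 0.0452).

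Other genes of glycolysis were taken from a list of 19, of which 14 were on the array and 7 passed the filter. In Mc 4 of the 7 were higher than in Mx, against 24.1% of all tested probe-sets and with a median of 0.78, and 4 were higher and 1 lower than in DP, against 11.1% and 19.4%. Pfkl, the liver form of phosphofructokinase, was 868 and 700.0 in Mc, 459 and 417 in DF, 419.6 and 420.1 in DP, 117 and 189 in ORS, with 92.6 and 120.4 in Mx, and differed by 2.41 between Mc and Mx (SE 0.21, adjusted p = 1.66e-06). Pgam1, the gene of phosphoglycerate mutase, was 1354 and 1091 in Mc and between 518 and 763 on the other 8 arrays, with Mc higher than each other population (this gene was chosen after its values were seen). Tpi1, the gene of triosephosphate isomerase, was lowest in Mx, at 751.5 and 672, and highest in Mc, at 1585 and 1497. Of the 3 phosphofructokinase genes Pfkp had its highest mean in ORS, Pfkl in Mc and Pfkm, the muscle form, in DP (364 and 374, against 151 and 156 in Mc), but Pfkp in ORS and Pfkm in DP were not separated from DF (differences of 0.11 and 0.28, adjusted p = 0.649 and 0.298). Bpgm, the red blood cell enzyme that makes bisphosphoglycerate, was 508 and 622 in DF and at most 143 elsewhere, beside the Alas2 signal in the same arrays. Minpp1, a phosphatase of the same metabolite, had the smallest range of the list, 0.58.

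Of 22 genes of pyruvate dehydrogenase and the citrate cycle 17 were tested, and in Mx 6 were higher and 1 lower than in DP, against 25.0% and 33.1% of all tested probe-sets, and 5 were higher and 0 lower than in DF, against 21.1% and 31.2%. The shares that were higher were near the background, while those that were lower were below it. ORS was likewise higher than DP for 5 of the 17 and lower for 1, against 20.3% and 19.8%. Cs, citrate synthase, was 1856 and 2124 in Mx, 1572 and 1566 in ORS, 1016 and 1377 in DF, 673 and 728 in DP and 938 and 916 in Mc. Fh1, fumarate hydratase, was 1976 and 1414 in Mx and 1319.6 and 1084 in ORS, against 471 to 832 in DF and DP, with a difference between Mx and ORS of 0.47 (adjusted p = 0.191). Mx was thus higher than DP by 1.44 for Cs (SE 0.19, adjusted p = 4.05e-05) and by 1.22 for Fh1 (SE 0.23, adjusted p = 0.000794). Idh3a, a subunit of isocitrate dehydrogenase, was higher in Mx than in DP by 1.02 (adjusted p = 0.000602), whereas Ogdh, of the oxoglutarate dehydrogenase complex, was highest in Mc (569 ± 158, SD, n = 2) and Sdhc, a subunit of succinate dehydrogenase, varied least.

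Of 14 glycogen genes 6 were tested, and in Mx 4 were lower than in ORS, against 15.4% of all tested probe-sets, 5 lower than in DP, against 33.1%, and 6 lower than in DF, against 31.2%. Ppp1r3c passed the filter through DF alone, Pygl through DP alone and Gyg through Mc alone. The counts against DF and DP are therefore not independent of the filter. Gyg, glycogenin, which primes glycogen, was 3.7 and 1.7 in Mx, 34.9 and 37.4 in ORS, 94.9 and 92.7 in DF, 44.7 and 66.3 in DP, and 226 and 291 in Mc. Ugp2, which makes the activated glucose for glycogen, was highest in Mc (1299.3 ± 0.99, SD, n = 2) and lowest in Mx (418 ± 91.2), and Ppp1r3c, a glycogen-targeting phosphatase subunit, was highest in DF, at 408 ± 90.0, with 6.80 ± 0.85 in Mx. Pygl, the liver glycogen phosphorylase, peaked in DP (258 ± 0.07), and Pgm1, a phosphoglucomutase, had the smallest range of the list (0.96), from 82.0 and 129 in Mx to 249 ± 9.26 in Mc. Slc16a1, the gene of the lactate carrier Mct1, was 17.2 and 9.2 in Mx and between 117 and 392 on the other 8 arrays, and was lower in Mx than in ORS (-2.28, SE 0.23, adjusted p = 1.70e-05). Its relative Slc16a7 was highest in ORS (577 ± 120) and lowest in Mc (1.3 and 1.7), and Slc2a10, another sugar carrier, was highest in DP (285 ± 87.0). Bsg, basigin, which escorts the lactate carriers to the membrane, was higher in Mc (1018 ± 54.5) than in Mx (670.4 ± 168) by 0.59 (adjusted p = 0.0238), and Mpc1, of the mitochondrial pyruvate carrier, had the smallest range of the carriers (0.52). Of the 6 other genes of gluconeogenesis on the array only Pcx, pyruvate carboxylase, passed the filter, and it did not follow Fbp1, being lower in Mx than in ORS (-0.86, SE 0.24, adjusted p = 0.0220).

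Of the hypoxia-inducible factors and their other targets 9 of 18 were tested. Hif1a itself, chosen after its values were seen, was lowest in Mx, at 307 and 301, against 973 and 1269 in ORS, 995 and 1128 in DF, 683 and 759 in DP, and 835 and 804 in Mc. The Mx arrays lay below all others, and Mx was lower than ORS (-1.71, SE 0.19, adjusted p = 2.80e-05). Vegfa, the vascular growth factor, and Bnip3 were highest in DP (242 ± 47.7 and 281 ± 26.7), Egln3, an oxygen-sensing hydroxylase, and Ddit4 in ORS (286 ± 46.2 and 328 ± 34.8), and Egln1 varied least of the 9. Between Mc and Mx 3 of the 9 were higher and 2 lower, near the 24.1% and 25.8% of all tested probe-sets, with a median of 0.18. The pentose phosphate genes, of which 6 of 8 were tested, had 4 lower and 1 higher in Mc than in Mx, against 25.8% and 24.1% of all tested probe-sets, with a median of -0.60. Tkt, transketolase, was 2514 ± 186 in Mx and 1422 ± 44.4 in Mc, while Pgd, phosphogluconate dehydrogenase, was highest in DP (670.5 and 655). Taldo1, transaldolase, ran from 265 ± 48.5 in DP to 570 ± 8.13 in ORS, Rpia, an isomerase of ribose phosphate, was lowest in Mc (158 ± 8.34), and Rpe had the smallest range (0.51). Of the switches that hold pyruvate out of the citrate cycle, Pdk3 was lower in Mc than in Mx (-0.88, SE 0.20, adjusted p = 0.00257) and Pdk1 had -0.37 (adjusted p = 0.130).

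**Figure D4:**
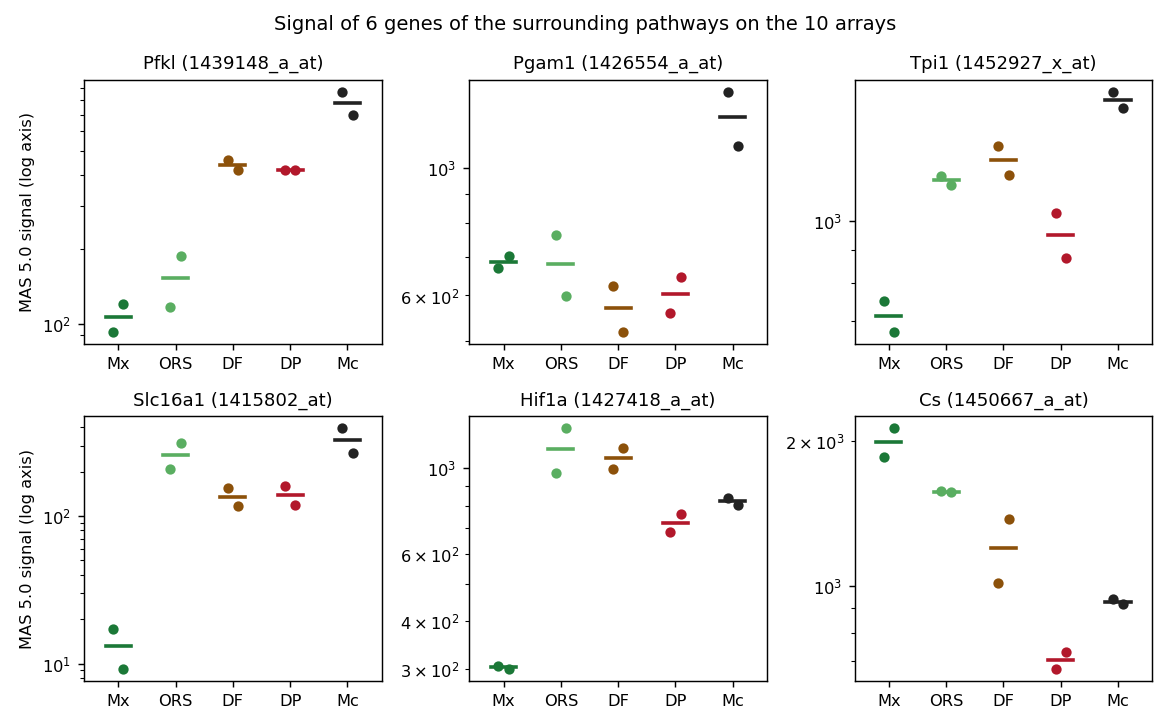
MAS 5.0 signal (vertical log axis, a separate range in each panel) of 6 genes in the 5 populations, where points are single arrays (2 a population) and bars their means. Pfkl, Pgam1, Tpi1 and Slc16a1 have their highest points in Mc, Hif1a and Slc16a1 have their lowest in Mx (307 and 301 for Hif1a), and Cs has its highest in Mx.

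The genes whose pattern over the 10 arrays was most like that of Fbp1, by Pearson correlation of log2 signals, were Cited4 (r = 0.990), S100a3 (0.980), Crym (0.979), Cryba4 (0.978) and Mt4 (0.976). All of them were high on both Mx arrays, as with S100a3 (4024 and 2099), whose protein binds calcium in cuticle cells, and had DF replicate 2 above DF replicate 1. Those most like the mean standardised profile of the other 8 genes were Dkk3 (0.959), a secreted relative of the Wnt inhibitors, Specc1 (0.942), Adh5 (0.939), Dock5 (0.938) and Tpi1 (0.938). That mean profile was -0.85 and -1.08 on the Mx arrays and 1.10 and 1.08 on the Mc arrays, and Dkk3 was 28.2 and 33.2 in Mx against 998 and 973 in Mc. These correlations are a description over arrays that share populations, and genes were not independent.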

How the data were processed

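RNA of sorted cells was amplified in 1 round, hybridised to MOE430A arrays and summarised by the authors with MAS 5.0. The deposited values are linear signal intensity per probe-set, with no detection call used here. The authors describe scaling each array to a common target, but the scaling behind the deposited values could not be settled. The mean signal after trimming both ends ran from 162 (Mx replicate 1) to 196 (DF replicate 2). It was lower on the Mx and Mc arrays than on all others. The 2 arrays of a population are described as independent datasets, and their number limits the precision. The 64 control probe-sets were left out. Intensity was taken as log2(signal + 50), a probe-set was tested at a signal of at least 200 on both arrays of some population, and limma 3.58.1 (R 4.3.3) fitted all 10 arrays together (residual df 5, prior df 7.46, median residual SD 0.208), with Benjamini-Hochberg adjustment over the 8054 probe-sets and a threshold of 0.05. The fit was tested on simulated data. An exact permutation test of 2 arrays against 2 cannot go below p = 0.333, so none is given. Arrays came from 2 chip lots of 6 and 4 arrays, and Mx lay in 1 of them.

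All probe-sets of the listed genes are described. From each other list up to 4 tested genes with the largest range of population means and the gene with the smallest were named, and the 5 genes most correlated with Fbp1 and with the mean of the other genes. The members and lists were chosen with earlier results of these data known. Alternatives were other pseudocounts, no filter, quantile normalization, rescaling, a replicate block, a chip lot block, fits on the compared pair only, the mean of a gene's probe-sets and leaving out each array. Differences within a chip lot were added after seeing the data. Probe-sets with 1 gene symbol numbered 20380, with several 691 and with none 1555. Tables and plots were made with Python 3.11.15, numpy 2.4.6, pandas 2.3.3 and matplotlib 3.10.9.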

Additional observations from a re-analysis of the deposited data

How the results depend on the processing

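Of 1745 differences of the 8 genes recomputed under 22 settings, 1629 stayed on their side of the threshold, 62 lost a call, 54 gained one and 0 called differences changed direction. Of 39 called differences, 19 were called under all 22 settings and 5 more under every setting except the fit on the compared pair, which gave them no value, and the 60 values within a chip lot, an alternative chosen after seeing the data, all had the direction of the fit. Fitted on the compared pair alone, 2 genes were called between Mx and ORS in place of 4 (Pfkp and Pkm) and 1 between Mx and DP in place of 2 (Hk1). Between DP and DF, 1 gene was called with no signal filter in place of 3, and 1 to 3 when an array was left out. Without the filter the calls of Hk1 and Hk2 between DP and DF, Hk2 between Mx and DF and Pkm between Mc and DP were lost, and with a pseudocount of 1 or 16 those of Hk1 between DP and DF and Pkm between Mc and DP. Between Mc and DP, quantile normalization called 7 genes in place of 4. Quantile normalization or rescaling moved the median of all tested probe-sets by 0.11 to 0.19 in the comparisons of Mx or Mc with ORS, DF and DP. In the pair fits 9 called differences had no value, because neither population reached a signal of 200 on both arrays. These were Slc2a1 and Hk1 between Mx and ORS, Slc2a1 between Mx and DP, and Hk1 and Pfkp between Mc and Mx. The others were Pfkp between Mc and DP, Hk2 and Slc2a1 between Mx and DF, and Slc2a1 between ORS and DF. Between Mc and Mx the pair fit thus called 5 genes in place of 7. The cause of the other changes was not tested.

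The labels tie the replicate numbers to no batch, but in 4 of the 5 populations, all but Mx, replicates 1 and 2 lay in chip lots 1 and 2. Same-numbered arrays of the pairs of populations deviated with correlations from -0.0456 to 0.3399, so the numbers were not taken to pair the arrays. With the replicate block the genes called were 4 between Mx and ORS, 3 between DP and DF, 3 between Mx and DP, 6 between Mc and DP and 7 between Mc and Mx, and 46 over all comparisons against 39 without the block. The gene added between Mx and DP was Ldha (limma adjusted p = 0.0259). Those added between Mc and DP were Ldha and Slc2a1 (adjusted p = 0.0109 and 0.0308). Signals below about 200 limit the dim probe-sets, of which 4 of the 18 were not tested.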
